A study of Mus musculus with 2 samples.

Results

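The respiratory chain passes electrons from NADH and succinate to oxygen through complexes I to IV of the inner mitochondrial membrane and uses the proton gradient this builds to make ATP at complex V, the ATP synthase. The mitochondrial genome encodes a small set of its catalytic subunits, and the cell nucleus encodes every other subunit and the assembly factors, whose mRNAs are translated in the cytosol. Leukocytes differ in their use of this machinery: mature neutrophils are known for glycolysis and few mitochondria, and activated macrophages and lymphocytes remodel it. The genes described here are all nuclear genes whose symbols begin with Nduf (complex I), Sdh (complex II), Uqcr (complex III), Cox4 to Cox8 (complex IV) or Atp5 (complex V), without 1 pseudogene. The rule found 97 of the 32285 genes in the count matrices, all annotated as protein coding, and used no measured value. They comprise 44 genes of complex I with its assembly factors and 8 of complex II, which are 4 subunits and 4 assembly factors. A further 8 belong to complex III and 17 to the ATP synthase. Complex IV has 20, with the subunit Ndufa4, its relative Ndufa4l2 and the supercomplex factor Cox7a2l.

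Their transcripts were counted in CD45-positive cells, that is leukocytes, sorted from liver tumours of C57BL/6 mice. RIL-175 cells, a mouse hepatocellular carcinoma line that here carried luciferase, had been implanted orthotopically, and all mice were on an MCD diet, which lacks methionine and choline and produces fatty liver disease. Mice of the AKK group received 5e9 CFU of the gut bacterium Akkermansia muciniphila by mouth, and mice of the PBS group received phosphate-buffered saline. Feeding started 2 weeks ahead of the diet, implantation came after 2 weeks of diet, and AKK feeding paused for 6 days after surgery. There was 1 library per group, made with the 10x Genomics 3′ v3 kit, which counts transcripts as unique molecular identifiers (UMIs) at their 3′ ends. The sources used here do not say how many mice a library pooled, or their age and sex. Without a second library in either group no test was possible, so "higher" and "lower" are descriptions, and the 95% intervals cover counting error and no spread between animals.

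After filtering, the AKK library kept 6177 cells with 67740969 UMIs (median 6369 per cell), and the PBS library kept 4646 cells with 60432239 UMIs (median 6758.5). Barcodes with 15% or more of their UMIs from the mitochondrial genome were left out, which were 1.41% of AKK and 5.01% of PBS barcodes. Only 8 barcodes occurred in both libraries. The cells fell into 31 clusters, of which 27 were named from marker genes and grouped into 16 classes called X-like. Ptprc, the gene of CD45, stood between 363 and 4604 CPM (UMIs scaled by the UMI total of the class) in every named leukocyte class of either library. It was only 47.0 CPM in AKK and 30.8 CPM in PBS in cells with epithelial markers such as keratins, called tumour/epithelial-like, so that class went against the CD45-positive label. Markers of neutrophils were lower in the AKK library in 7 of the 7 other classes compared, and those of macrophages likewise in 7 of 7, at 0.356 to 0.954 and 0.440 to 0.781 times the PBS level. Markers of T cells ran the other way and were higher in the AKK library in every other class compared. They stood at 60.04 CPM in AKK and 27.73 CPM in PBS in neutrophil-like cells. In B-like cells they stood at 27.83 and 10.98 CPM, and in NK/ILC1-like cells at 692.6 and 673.0 CPM. The part of these markers in the results below was not tested.

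Reference promoters of these genes hold recognition cores of the factors known to drive respiratory genes. RefSeq windows on GRCm38.p6, from 250 bases before to 50 bases after each transcription start, were matched by symbol for 79 of the 97 genes and gave 84 windows. The NRF1 core CGCATGCG stood on either strand in 13.1% of them, against 1.87% of all 32851 windows in the table. The ETS and GABP core CCGGAAG stood in 26.2% against 8.86%, and the YY1 core AAGATGGC in 11.9% against 2.75%. At least 1 of these 3 cores was found in 42.9% of member windows and 12.6% of all windows. Smaller differences were seen for the ERR motif AAGGTCA (9.52% against 4.72%), the GC box GGGCGG (46.4% against 35.7%) and CCAAT (42.9% against 37.4%). A match is a description of letters, not of a bound site. 4 windows are printed because their genes carry results below: Atp5l and Uqcrh are the most abundant members of complexes V and III, Cox8a had a lower level in the neutrophil-like cells of the AKK library, and Cox6a1 is the widely expressed partner of an isoform restricted to plasmacytoid dendritic cells. All 4 genes lie on the minus strand, sequences run 5′ to 3′ in gene direction, and capitals mark the NRF1 core, which reads the same on both strands, and the ETS and GABP core, which reads CTTCCGG on the opposite strand. The windows are chr9:44920693-44920992 for Atp5l, chr4:116075021-116075320 for Uqcrh, chr19:7217567-7217866 for Cox8a and chr5:115348909-115349208 for Cox6a1.
Atp5l: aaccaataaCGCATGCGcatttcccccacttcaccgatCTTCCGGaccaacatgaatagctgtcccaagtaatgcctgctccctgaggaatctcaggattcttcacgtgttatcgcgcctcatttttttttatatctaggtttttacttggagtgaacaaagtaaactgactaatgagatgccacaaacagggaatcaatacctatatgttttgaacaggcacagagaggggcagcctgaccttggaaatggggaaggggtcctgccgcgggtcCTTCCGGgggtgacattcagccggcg
Uqcrh: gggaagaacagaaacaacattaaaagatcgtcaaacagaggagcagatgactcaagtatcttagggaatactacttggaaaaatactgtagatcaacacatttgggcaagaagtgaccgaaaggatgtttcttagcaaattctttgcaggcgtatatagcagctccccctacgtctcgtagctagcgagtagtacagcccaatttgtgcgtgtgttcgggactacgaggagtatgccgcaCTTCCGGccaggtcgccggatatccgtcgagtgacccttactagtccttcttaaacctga
Cox8a: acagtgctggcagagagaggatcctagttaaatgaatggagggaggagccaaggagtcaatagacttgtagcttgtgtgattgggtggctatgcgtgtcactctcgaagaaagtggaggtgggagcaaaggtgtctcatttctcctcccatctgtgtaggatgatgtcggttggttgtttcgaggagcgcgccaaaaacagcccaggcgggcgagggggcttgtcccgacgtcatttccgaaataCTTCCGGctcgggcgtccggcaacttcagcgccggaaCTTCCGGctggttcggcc
Cox6a1: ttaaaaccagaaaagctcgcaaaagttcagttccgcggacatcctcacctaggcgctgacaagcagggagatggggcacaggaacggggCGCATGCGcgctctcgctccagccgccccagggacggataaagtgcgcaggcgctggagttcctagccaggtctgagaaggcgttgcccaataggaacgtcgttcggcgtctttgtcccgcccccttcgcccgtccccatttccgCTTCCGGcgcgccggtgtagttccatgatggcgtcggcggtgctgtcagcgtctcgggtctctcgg

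Over all kept cells, 93 members had at least 100 UMIs, and 4 had fewer: Ndufa4l2 (73 UMIs), Cox7b2 (3), Cox8b (1) and Cox8c (1), all isoforms known from restricted tissues. The 10 most abundant members supplied 29.4% of the members' UMIs. Complex IV was led by Cox4i1, its regulatory subunit 4, at 436 CPM in AKK and 497 CPM in PBS, and by the small subunit Cox8a at 391 and 488 CPM. The ATP synthase was led by its subunit g, Atp5l (358 and 360 CPM), and its subunit epsilon, Atp5e (348 and 352 CPM). Complex III was led by the hinge protein Uqcrh (302 and 253 CPM) and by Uqcrq (220.3 and 250.2 CPM), and complex I by the accessory subunits Ndufa2 (188 and 199.6 CPM) and Ndufa6 (139 and 149 CPM). Complex II subunits were less abundant than these leaders: the flavoprotein Sdha stood at 73.1 CPM in AKK and 66.6 CPM in PBS and the iron-sulphur subunit Sdhb at 49.97 and 47.3 CPM. Its membrane anchors Sdhc (43.8 and 44.4 CPM) and Sdhd (43.02 and 44.2 CPM) were close behind. The UMI scale counts captured 3′ ends and does not depend on transcript length, but capture can differ between genes, and reads shared with processed pseudogenes cannot be told apart here.

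Differences between classes were larger than differences between the libraries. Among the 13 classes that had 30 or more cells in both, the members' share of all UMIs spanned 0.474% to 1.85% in the AKK library and 0.466% to 1.78% in the PBS library. The lowest place in both belonged to neutrophil-like cells, at 0.474% (0.470 to 0.479) in AKK and 0.466% (0.461 to 0.470) in PBS. Granulocytes ordered by maturity ran downward: myeloid precursor-like cells held 1.85% and 1.67%, immature neutrophil-like cells 0.596% and 0.668%, and neutrophil-like cells the values above. Tumour/epithelial-like cells (1.67% and 1.78%), cDC1-like (1.39% and 1.31%) and monocyte-like cells (1.40% and 1.254%) were the other classes of the top 4 places with the precursors, and tumour/epithelial-like cells stood first in PBS. With each cell weighted alike, monocyte-like cells fell to place 5 in AKK (mean 1.17%) and place 7 in PBS (mean 0.993%). Macrophage-like cells stood at 1.24% and 1.053%, cDC2-like at 1.19% and 1.21%, plasma-like at 1.04% and 1.21%, T-like at 1.003% and 0.916%, pDC-like at 0.917% and 0.961%, NK/ILC1-like at 0.825% and 0.882%, and B-like cells at 0.661% and 0.662%. Of the 78 pairs of classes, 71 had the same order in both libraries with intervals that did not overlap. Macrophage-like against plasma-like, macrophage-like against cDC2-like, T-like against pDC-like, and myeloid precursor-like against tumour/epithelial-like cells had opposite orders, 4 pairs in all. The remaining pairs, cDC1-like with monocyte-like, cDC2-like with plasma-like and immature neutrophil-like with B-like cells, overlapped in at least 1 library. Since a share is relative to the other mRNAs of the class, fewer of these transcripts per cell and more of all others cannot be told apart.

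**Figure D1:**
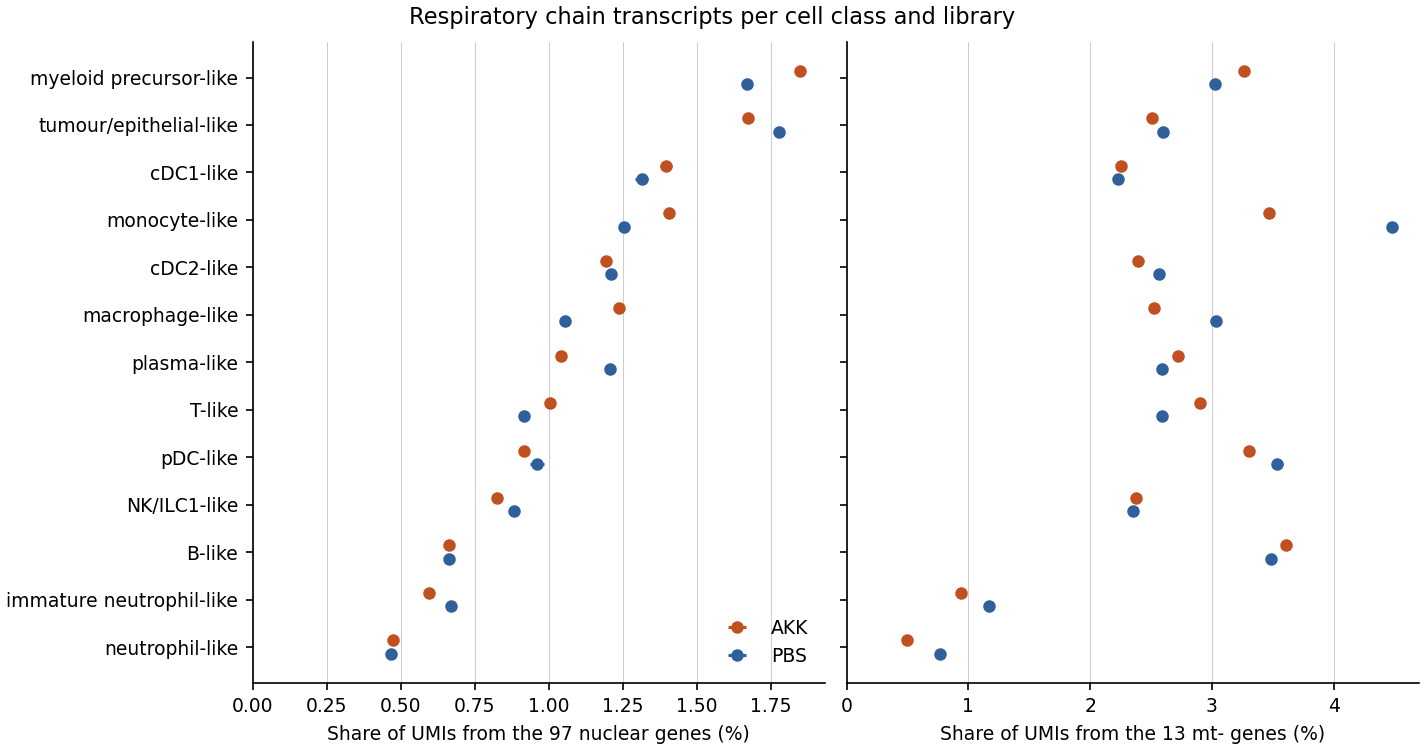
Share of all UMIs from the 97 nuclear-encoded genes (left, percent) and from the 13 mitochondrially encoded genes (right, percent) in each cell class, with AKK above PBS and bars for 95% counting intervals, mostly narrower than the points. Neutrophil-like cells are lowest on both axes, whereas B-like cells are low on the left (0.661% and 0.662%) and high on the right (3.60% and 3.49%).

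The 13 mitochondrially encoded subunits did not follow the same order of classes. B-like cells had one of the highest mt- shares, 3.60% in AKK and 3.49% in PBS, with a low nuclear share. They held 5.45 and 5.27 mt- UMIs for each nuclear-encoded UMI. This ratio was 1.048 and 1.65 in neutrophil-like, 1.5005 and 1.46 in tumour/epithelial-like, and 2.89 and 2.82 in T-like cells. Across the 13 classes, which share libraries and differ in depth, the Pearson correlation of both shares was 0.48 in AKK and 0.40 in PBS, given as a description only.

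Several members departed from the common order. Cox6a2 (chr7:128205435-128206387 on GRCm38, minus strand) encodes the heart and muscle isoform of subunit 6a, the counterpart of Cox6a1. In pDC-like cells it had 667 UMIs in AKK and 325 in PBS, which is 518 and 504 CPM, and there it was the most abundant member of all. The median of the other classes was 1.19 CPM in AKK and 0.335 CPM in PBS, and the next highest class, myeloid precursor-like cells, had 11.8 and 8.09 CPM. Only 82 AKK and 41 PBS cells made up the pDC-like class, and the isoform stood at this level in both. The ratio AKK over PBS there was 1.03 (0.899 to 1.18).

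Other restricted isoforms of complex IV were scarce. Cox4i2, the lung isoform of subunit 4 that is known to respond to low oxygen, stood at 17.9 CPM in macrophage-like cells of the AKK and 15.6 CPM of the PBS library, where the ubiquitous Cox4i1 had 498 and 492 CPM. Cox6b2, known from testis, reached 20.6 and 25.5 CPM in myeloid precursor-like cells and 9.09 and 7.07 CPM in monocyte-like cells. Cox7a1, a heart and muscle isoform, reached 6.60 and 5.39 CPM in macrophage-like and 8.15 and 5.85 CPM in tumour/epithelial-like cells. Ndufa4l2, which replaces Ndufa4 under low oxygen in several tissues, had 32 and 17 UMIs in macrophage-like cells, and 10 and 5 in tumour/epithelial-like cells, out of 44 and 29 in all kept cells.

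Ndufa4 and its relative AA467197 were highest in different classes. Ndufa4 is a complex IV subunit despite its name, and AA467197, the mouse ortholog of human C15orf48 and not a member by the rule, encodes a protein that can take its place in inflamed cells. Ndufa4 was highest in myeloid precursor-like cells (565 CPM in AKK and 479 CPM in PBS) and plasma-like cells (529 and 558 CPM), and lowest in neutrophil-like cells (46.8 and 44.3 CPM). AA467197 was highest in macrophage-like cells (776 and 545 CPM) and cDC2-like cells (358 and 533 CPM), with 298 and 295 CPM in neutrophil-like cells. B-like cells had 12.4 and 17.2 CPM. In macrophage-like and neutrophil-like cells AA467197 thus exceeded Ndufa4, and in the precursors, plasma-like, B-like and T-like cells Ndufa4 exceeded it, in each library.

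**Figure D2:**
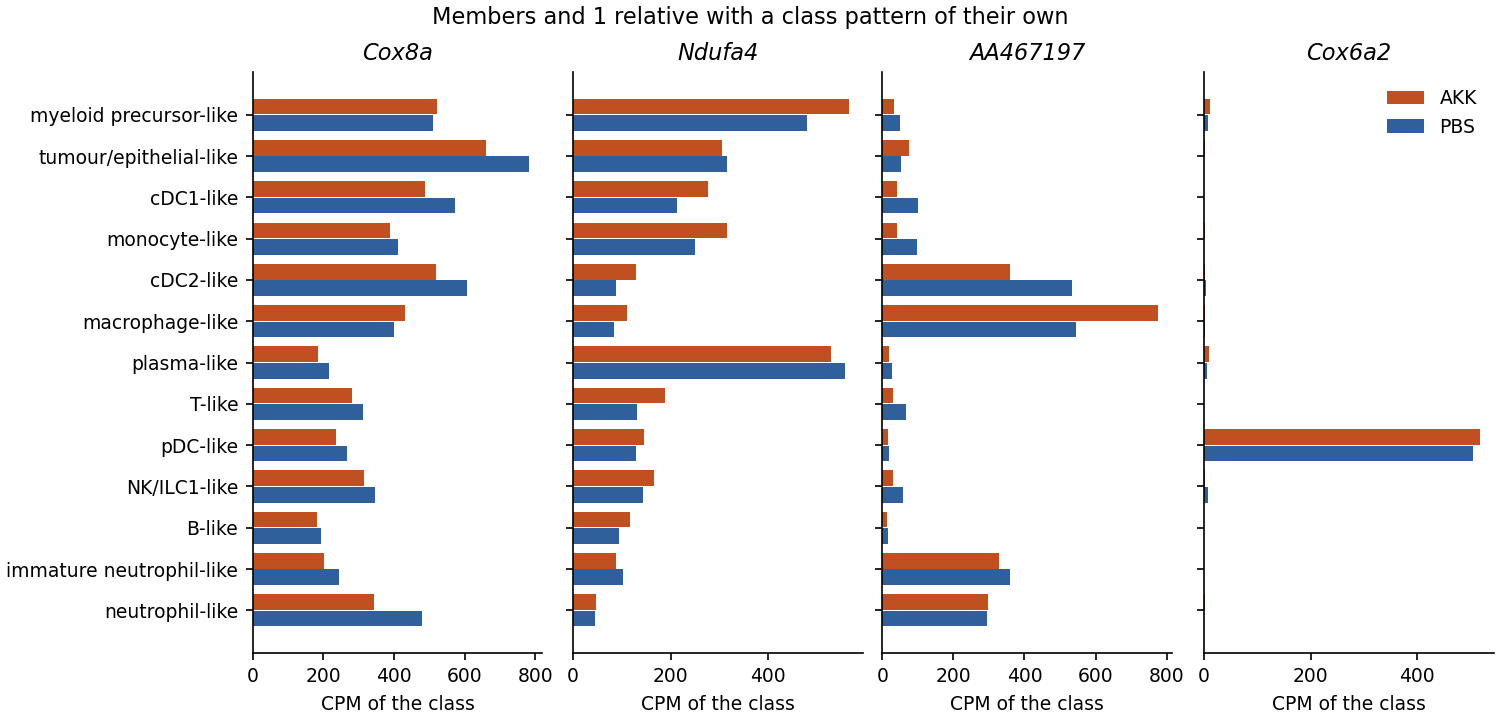
Level of 4 genes in CPM of the class (each panel has its own linear axis from 0), with AKK bars above PBS bars. Cox6a2 stands at 518 and 504 CPM in pDC-like cells and far lower elsewhere, Cox8a in neutrophil-like cells at 344 and 480 CPM, Ndufa4 peaks in myeloid precursor-like and plasma-like cells, and AA467197 peaks in macrophage-like cells at 776 and 545 CPM.

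The make-up of the respiratory chain transcripts also differed by class, as the part that each member with at least 100 UMIs in both libraries took of the members' UMIs. In neutrophil-like cells Cox8a supplied 7.26% of the members' UMIs in AKK and 10.3% in PBS, which was 2.33 and 2.93 times the median of the other classes. The complex I assembly factor Ndufaf7 (4.58 and 4.24 times) and the complex II assembly factor Sdhaf2 (3.34 and 4.05 times) were also over-represented. Low in these cells were the genes of the proton-carrying c subunit of the ATP synthase, Atp5g2 (0.369 and 0.351 times) and Atp5g3 (0.401 and 0.416 times), and the accessory subunit Ndufa11 (0.421 and 0.386 times). Immature neutrophil-like cells differed in other members, led by Ndufb7 at 2.62 and 2.54 times. Plasma-like cells were rich in Ndufa1 (3.67 and 3.74 times) and Ndufa4 (2.82 and 3.12 times). Ndufs4, which completes the peripheral arm of complex I, was over-represented in lymphocytes, at 1.95 and 2.13 times in T-like, 2.65 and 2.65 times in NK/ILC1-like and 2.17 and 2.57 times in B-like cells. In B-like cells Sdha stood at 2.65 and 2.18 times. Members were named here because they departed in both libraries, so agreement between the libraries was set by the choice.

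Between the libraries, the summed members differed by at most 1.17 times in the 8 classes with at least 100 cells in each. The ratio AKK over PBS was 1.17 (1.16 to 1.18) in macrophage-like, 1.12 (1.11 to 1.13) in monocyte-like and 1.09 (1.08 to 1.11) in T-like cells. It was 1.02 (1.01 to 1.03) in neutrophil-like and 0.998 (0.973 to 1.02) in B-like cells. Lower shares in the AKK library were found in tumour/epithelial-like (0.940, 0.934 to 0.946), NK/ILC1-like (0.935, 0.921 to 0.950) and immature neutrophil-like cells (0.891, 0.869 to 0.914). Complexes I, III, IV and V were all higher in macrophage-like, monocyte-like and T-like cells. In neutrophil-like cells I, III and V were higher, IV was lower (0.937, 0.916 to 0.959), and the interval of II held 1 (0.955, 0.889 to 1.03). The lower complex IV sum was not shared by its members. Of 11 widely expressed subunits there, 6 were above 1 and 5 below, with Cox8a lowest at 344 against 480 CPM.

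**Figure D3:**
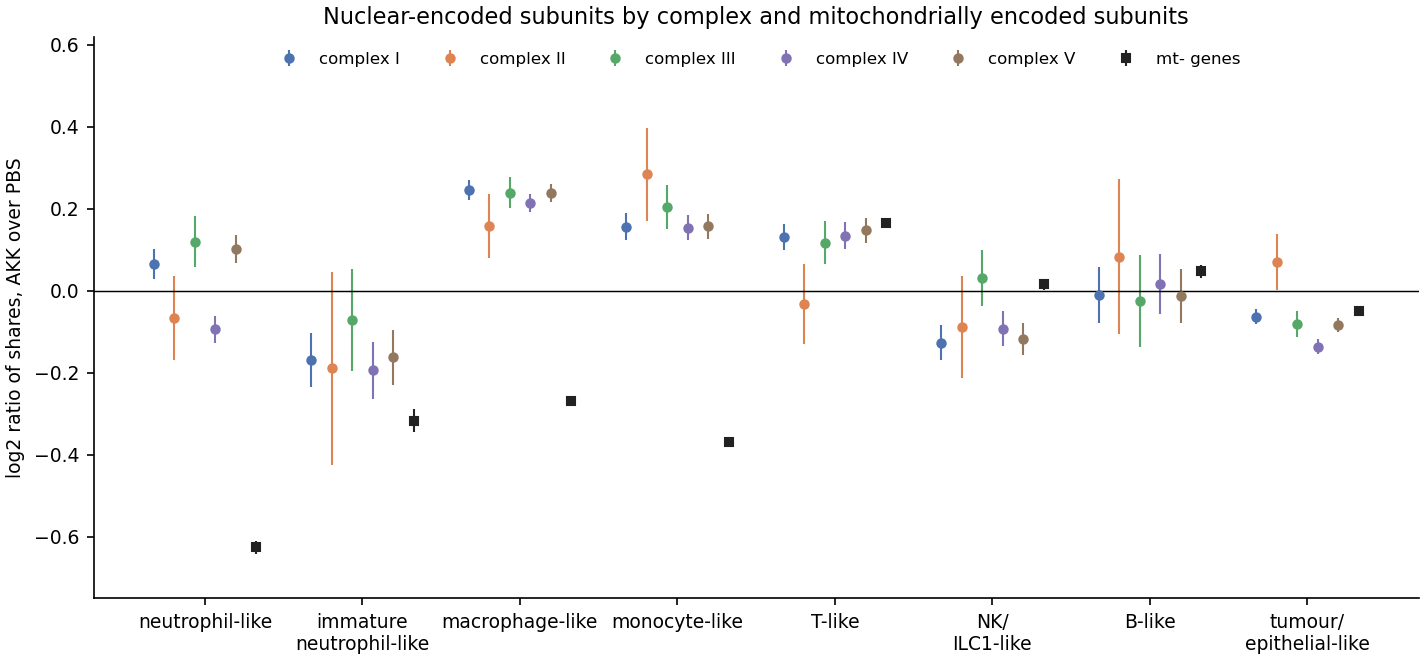
log2 ratio of UMI shares, AKK over PBS, for each nuclear-encoded complex (circles) and the mitochondrially encoded genes (black squares) in 8 classes, with 95% counting intervals as bars. In macrophage-like and monocyte-like cells all circles lie above 0 and the square below it (-0.27 and -0.37), and in neutrophil-like cells the square is at -0.63 with the circles near 0.

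Macrophage-like cells had the most uniform difference. Their members' share was 1.24% (1.23 to 1.24) in 541 AKK cells and 1.053% (1.047 to 1.059) in 629 PBS cells. The median cell had 1.197% in AKK and 0.9755% in PBS. Of 88 members with at least 100 UMIs over both libraries, 83 had a ratio above 1, beside 65.0% of all genes measured in the class. A fold threshold of 25% higher or 20% lower in the AKK library was used throughout. Past it upward were 26 members, or 29.5%, beside 23.9% of all genes measured in the class, and no member was past it downward, beside 11.9%. The median log2 ratio of the members was 0.25, and that of all genes was itself 0.12. After centring on all genes 5 members were past the fold upward and none downward. The share of all genes past it was not counted after centring.

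By role, all 17 ATP synthase genes, all 11 widely expressed complex IV subunits and 28 of 29 complex I accessory subunits were above 1 in macrophage-like cells. Of all genes measured in the class, 65.0% were above 1. The 7 core subunits of complex I, which carry out its electron transfer, were less shifted, with 6 above 1 and none past the fold. Ndufs4 had the highest ratio, with 735 UMIs (93.3 CPM) in AKK against 746 UMIs (64.9 CPM) in PBS, a ratio of 1.44 (1.30 to 1.596). Cox7b, a small subunit of complex IV, stood at 262 against 188 CPM (1.39, 1.31 to 1.48), and the complex I accessory subunit Ndufb3 at 88.6 against 63.8 CPM (1.39, 1.251 to 1.54). The smallest ratios with an interval above 1 were those of Atp5b, the catalytic beta subunit of the ATP synthase, at 239 against 225 CPM (1.06), Cox8a at 431 against 401 CPM (1.08) and Ndufa7 at 124 against 114 CPM (1.09). AA467197 was higher too, at 776 against 545 CPM (1.42), as was Atpif1, the inhibitory factor of the ATP synthase, at 219 against 174 CPM (1.26).

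Values that moved with this difference were the depth and the markers of the class. The median macrophage-like cell had 12530 UMIs in AKK and 16607 in PBS, and the 8 macrophage markers made up 0.541% and 0.820% of UMIs. When the class was divided into 4 equal bins by UMIs per cell, in each bin the members' share was higher in the AKK library, by 1.147, 1.38, 1.18 and 1.19 times from the shallowest bin to the deepest. Cytosolic ribosomal protein genes did not move with the members: they held 9.63% in AKK and 9.67% in PBS. The mt- share was lower, at 2.52% in AKK and 3.04% in PBS (log2 ratio -0.27, and -0.69 without the limit on the mitochondrial share, an alternative that keeps the barcodes left out above). The part of the markers and the mt- share in the members' result was not tested.

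Monocyte-like cells differed mainly at intermediate depth. Their share was 1.40% (1.39 to 1.42) in 388 AKK cells and 1.254% (1.243 to 1.265) in 297 PBS cells, and the median cell had 1.28% and 0.840%. By depth bin, the share was 0.560% in AKK and 0.560% in PBS in the shallowest, 1.11% and 0.612% in the next, 1.49% and 1.10% in the third, and 1.61% and 1.62% in the deepest. The ratios were therefore 1.001, 1.81 (1.75 to 1.88), 1.35 (1.32 to 1.38) and 0.996. The mt- share ran the other way: in the bin with the ratio of 1.81 it was 3.92% in AKK and 7.45% in PBS. Neutrophil markers made up 0.214% and 0.601% of the class's UMIs. The part of the mt- share and of these markers in the result was not tested.

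**Figure D4:**
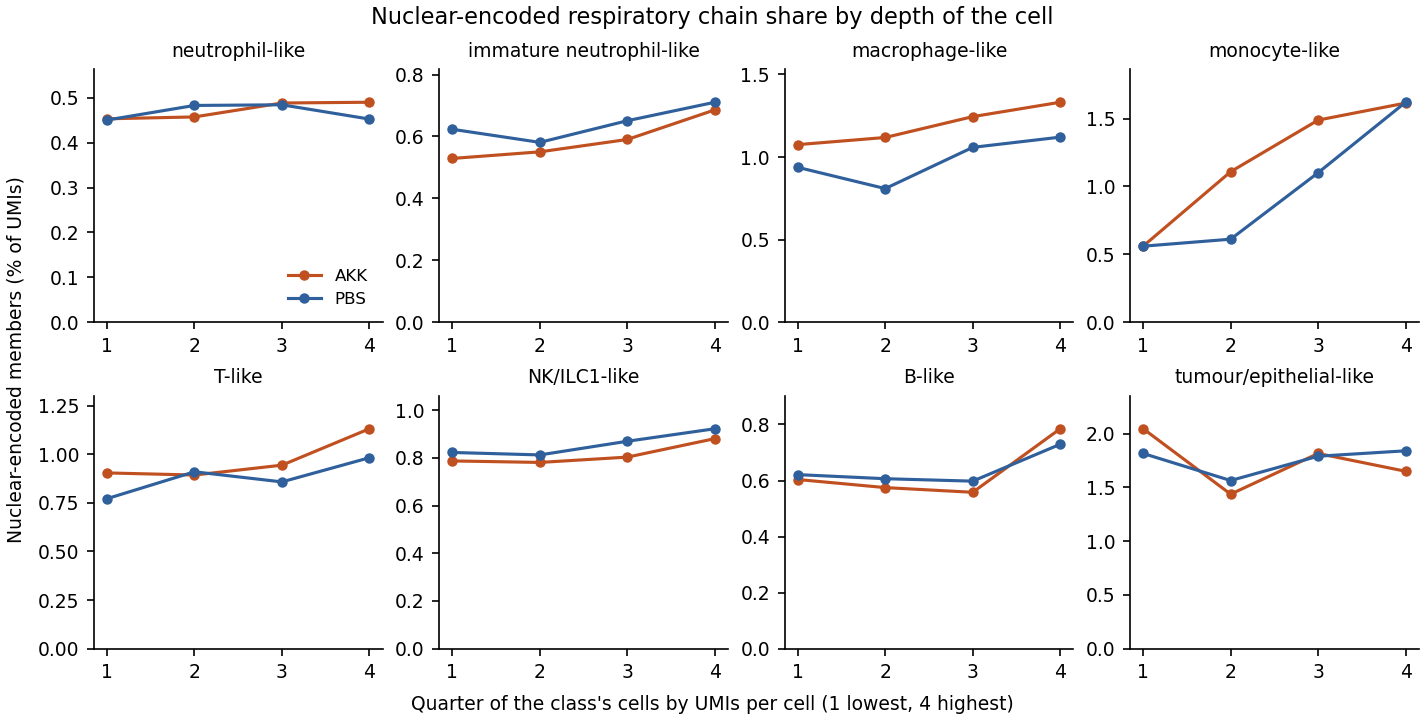
Members' share of UMIs (percent, axis from 0) in 4 equal bins of a class's cells by UMIs per cell, for the AKK and PBS libraries in 8 classes; lines join the bins of a library. The lines of monocyte-like cells meet at the ends (0.560% and 0.560%, 1.61% and 1.62%) and part between them, and those of macrophage-like cells stay apart in all 4 bins.

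Of 82 members measured in monocyte-like cells, 67 had a ratio above 1, beside 66.1% of all genes measured there. Past the fold, 20 were higher (24.4%, beside 30% of all genes) and none lower (beside 14.2%). The median of all genes was 0.14 on the log2 scale, against 0.19 for the members, and centring on it left 4 members higher and 3 lower. Here too the share of all genes was not counted after centring. Ndufb3 had the highest ratio, with 125 CPM in AKK and 82.3 CPM in PBS (1.52, 1.32 to 1.74). Among members whose interval excluded 1, it was followed by the accessory subunit Ndufc2 at 109 and 78.0 CPM (1.40, 1.21 to 1.62) and by Sdhaf2, which inserts the flavin into Sdha, at 40.3 and 29.02 CPM (1.39, 1.09 to 1.77). Sdhaf1 lay between Ndufc2 and Sdhaf2, at a ratio of 1.396 with an interval that held 1. At the low end were the accessory subunit Ndufa10 at 71.9 and 87.8 CPM (0.819, 0.702 to 0.954), the delta subunit of the ATP synthase Atp5d at 171 and 203 CPM (0.845, 0.765 to 0.933), and Ndufv3 at 90.5 and 104 CPM (0.870, 0.758 to 0.9998). AA467197 stood at 40.1 CPM in AKK and 97.7 CPM in PBS, opposite to its direction in macrophage-like cells.

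T-like cells were the one large class in which nuclear and mitochondrial transcripts were both higher in the AKK library. The members' share was 1.003% (0.996 to 1.01) in 876 AKK cells and 0.916% (0.907 to 0.925) in 449 PBS cells, and the mt- share was 2.90% and 2.59%. The median cell had 0.889% and 0.865%. Each of the 3 T-like clusters had a ratio above 1, at 1.10, 1.33 and 1.11, whereas by depth the bins gave 1.17, 0.982, 1.10 and 1.152. Among 86 measured members, 70 were above 1 while the median of all genes was at 0.00 on the log2 scale. Past the fold were 9 upward (10.5%, beside 11.3% of all genes) and 4 downward (4.65%, beside 13.8%), shares near or under the background.

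Ndufa4 had the highest ratio in T-like cells, with 1590 UMIs (189 CPM) in AKK against 592 UMIs (131 CPM) in PBS (1.44, 1.31 to 1.59). Its ratio was 1.45, 1.82 and 1.38 in the 3 clusters, and all 3 intervals lay above 1. The accessory subunits Ndufc1 (61.9 and 43.6 CPM; 1.42, 1.202 to 1.68) and Ndufc2 (65.2 and 49.0 CPM; 1.33, 1.14 to 1.56) came next. Lower were the complex II assembly factor Sdhaf1 at 26.1 and 42.1 CPM (0.621, 0.509 to 0.758), the complex I assembly factor Ndufaf2 at 24.0 and 31.9 CPM (0.752, 0.604 to 0.938) and the NADH-binding core subunit Ndufv1 at 23.8 and 30.6 CPM (0.777, 0.623 to 0.973). Sdhaf1 was lower in each of the 3 clusters, at 0.692, 0.507 and 0.587. All 3 measured complex II assembly factors were below 1, beside 50.7% of all genes, and all 4 complex II subunits above 1, beside 49.3%. AA467197 had 31.2 CPM in AKK and 65.4 CPM in PBS, and the macrophage markers in T-like cells were 62.3 and 142 CPM.

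NK/ILC1-like cells went the other way. Their members' share was 0.825% (0.817 to 0.833) in 537 AKK cells and 0.882% (0.871 to 0.892) in 285 PBS cells, with mt- shares of 2.38% and 2.35%. All 4 depth bins had a ratio below 1, from 0.924 to 0.961. The cluster led by Gzma had a ratio of 0.887 (0.869 to 0.906), and the other cluster of the class had 1.02. Of 83 measured members, 17 were past the fold downward (20.5%, beside 14.9% of all genes) and 2 upward (2.41%, beside 15.2%). Cytosolic ribosomal protein genes, which are no members, were lower as well, at 9.64% in AKK and 12.6% in PBS, a log2 ratio of -0.38 against -0.10 for the members.

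Of the 7 complex I core subunits in NK/ILC1-like cells, 6 were below 1, beside 46.5% of all genes. Past the fold downward were 4 of the 7 (57.1%, beside 14.9% of all genes), and the median log2 ratio of the core subunits was -0.42. By summed share they stood at -0.32, and the complex II assembly factors at -0.33. The core subunits Ndufs3 (31.2 CPM in AKK and 48.1 CPM in PBS; 0.648, 0.515 to 0.817) and Ndufv2 (33.2 and 49.5 CPM; 0.671, 0.535 to 0.841) were among the 3 lowest members. The lowest was the accessory subunit Ndufb4 at 35.9 and 59.3 CPM (0.606, 0.491 to 0.748). These are genes of few UMIs, with 160 and 147 for Ndufs3. In the cluster led by Gzma and the other cluster, Ndufs3 stood at 0.522 and 0.887 (0.636 to 1.24). Ndufv2 stood at 0.722 and 0.616 there, and Ndufb4 at 0.529 and 0.769 (0.570 to 1.04). At the high end were Ndufb3 at 63.02 and 49.8 CPM (1.27, 1.04 to 1.55), Ndufa3 at 103 and 84.8 CPM (1.21, 1.04 to 1.41) and Ndufa4 at 167 and 144 CPM (1.154, 1.03 to 1.30).

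Neutrophil-like cells, the largest class with 2407 AKK and 1914 PBS cells, had nearly the same summed share in both libraries, but Cox8a stood out. Cox8a (chr19:7215153-7217616 on GRCm38, minus strand) had 3499 UMIs, or 344 CPM, in AKK against 4643 UMIs, or 480 CPM, in PBS, a ratio of 0.717 (0.686 to 0.749). It was lower in each of the 6 neutrophil-like clusters, with ratios of 0.543 to 0.834 and every interval below 1. The same gene was below 1 in 7 of the 8 compared classes, with macrophage-like cells the exception at 1.08. Neutrophil markers were lower in the AKK library in all 8 classes, macrophage-like cells included, at 3.98% against 4.78% of UMIs in neutrophil-like cells; their part in the Cox8a values was not tested.

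Among the other members of neutrophil-like cells, those with larger ratios had fewer UMIs. Of 83 measured, 7 were past the fold upward (8.43%, beside 19.4% of all genes) and 3 downward (3.61%, beside 10.1%). The complex I assembly factor Ndufaf8 had 169 UMIs (16.6 CPM) in AKK and 94 UMIs (9.73 CPM) in PBS, a ratio of 1.71 (1.32 to 2.23). Its log2 ratio of 0.77 was 0.23, under the fold, with the class taken from each cell's own marker score, and its ratio was 0.608 (0.152 to 3.49) in the cluster led by Acod1, Hdc and G0s2, from 9 and 3 UMIs. The complex III core protein Uqcrc2 (30.9 and 21.6 CPM; 1.43, 1.196 to 1.71) and the complex II anchor Sdhc (15.1 and 11.7 CPM; 1.29, 1.003 to 1.66) followed. Uqcrc2 was below 1 in the same cluster, at 0.496. Besides Cox8a, the lowest members whose interval excluded 1 were Sdhaf1 (10.3 and 14.2 CPM; 0.729, 0.560 to 0.947) and the small complex IV subunit Cox7c (88.9 and 98.0 CPM; 0.907, 0.827 to 0.995). Ndufaf3 (0.758) and Ndufs4 (0.896) had lower ratios than Cox7c, with intervals that held 1. The 6 clusters had shares of 0.336% to 0.777% in AKK and 0.329% to 0.740% in PBS, with ratios on both sides of 1 (0.887 to 1.17) and 4 of the 6 below it. The libraries filled the clusters unequally: the cluster led by Acod1, Hdc and G0s2 held 498 AKK and 97 PBS cells, and another, led by Cxcl3 and Cstdc4 and the lowest by ratio, held 106 and 344. With each cluster weighted alike the log2 ratio of the class was -0.021, against 0.03 for the pooled cells, and it was below 0 in 4 of 11 alternatives, so its direction was not stable.

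The mitochondrially encoded genes of neutrophil-like cells were lower in the AKK library by far more than the nuclear ones, at 0.497% (0.493 to 0.501) against 0.767% (0.761 to 0.772) of UMIs. All 12 measured mt- genes were past the fold downward, and each of the 6 clusters was lower, at 0.498 to 0.770 times. Depth was also lower, with medians of 4092 UMIs in AKK and 4793 in PBS, and in each depth bin the mt- share was lower in the AKK library, at 0.439% against 0.632% in the second. In immature neutrophil-like cells (163 in AKK and 164 in PBS) both kinds were lower, nuclear at 0.596% against 0.668% and mitochondrial at 0.938% against 1.17%. No member of 66 measured there was past the fold upward (beside 19.8% of all genes) and 17 were downward (25.8%, beside 17.8%), among them the Rieske protein gene Uqcrfs1 at 24.1 against 38.4 CPM. Ribosomal protein genes in that class were at 2.15% against 3.02%.

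The summed share of B-like cells was close between the libraries. That of tumour/epithelial-like cells was lower in the AKK library (0.940, 0.934 to 0.946). In 286 AKK and 164 PBS B-like cells, 1 of 74 measured members was past the fold upward (1.35%, beside 16.1% of all genes) and 5 downward (6.76%, beside 10.6%). Ndufc1 was the first, with 102 UMIs (43.7 CPM) in AKK and 36 UMIs (24.7 CPM) in PBS (1.77, 1.199 to 2.66), and Ndufa4 followed at 117 and 94.7 CPM (1.23, 1.002 to 1.53). Cox4i1 was at 268 and 306 CPM (0.876). The lowest were Uqcrfs1 at 45.4 and 63.1 CPM (0.719), Atp5o, the stalk subunit of the ATP synthase, at 54.4 and 71.4 CPM (0.762), and Ndufb10 at 57.4 and 74.8 CPM (0.767). In tumour/epithelial-like cells 2 of 90 members were past the fold in each direction (2.22%, beside 17% upward and 8.33% downward).

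**Figure D5:**
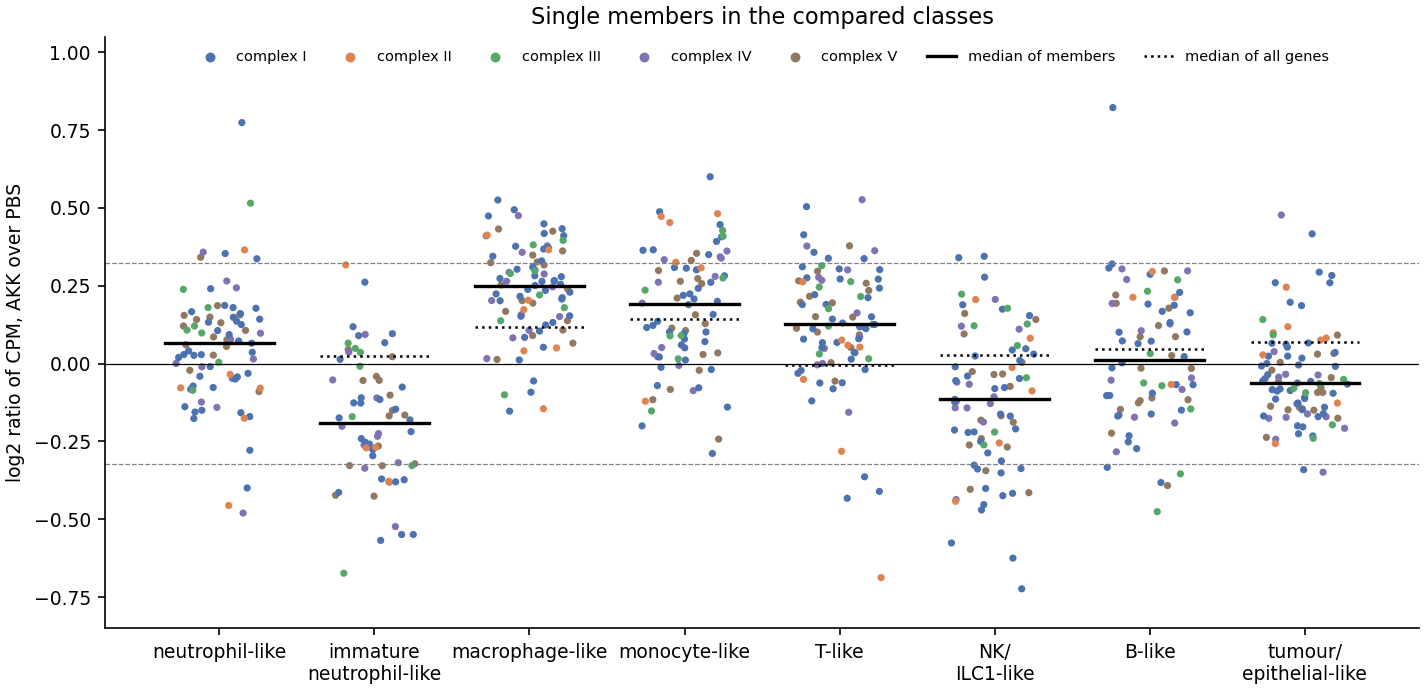
log2 ratio of CPM, AKK over PBS, of each member with at least 100 UMIs in 8 classes, coloured by complex; solid lines are the members' medians, dotted lines the medians of all genes measured and dashed lines the fold threshold. In T-like cells the members' median (0.13) lies above that of all genes (0.00), and in NK/ILC1-like cells (-0.12 and 0.03) below it.

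Members differed in how many classes they were past the fold. Of 91 members measured in at least 1 of the 8 classes, 26 were within the fold wherever measured. Past the fold upward in at least 3 classes were 9 members (Cox7b, Ndufaf8, Cox7a2, Ndufa4, Ndufb3, Ndufc1, Ndufc2, Ndufs6 and Uqcrc2) and past it downward in at least 3 classes were 2 (Sdhaf1 and Ndufb10). These are 9.89% of the members upward, beside 9.74% of the 12449 genes measured in at least 1 class, and 2.20% downward, beside 5.17%. Genes measured in few classes have less room to pass in 3. Among genes measured in all 8 classes, 7 of 62 members (11.3%) passed upward, beside 15.5% of 2899 genes. Downward, 1 member (1.61%) passed, beside 7.865% of genes. Both shares of this matched set were under the background. Ndufa4 was above 1 in 6 of 8 classes and Sdhaf1 below 1 in 5 of the 6 where it was measured. Other members were more one-sided: Uqcrh, Ndufc1 and Atp5f1 were above 1 in all 8 classes, and Ndufa10 was below 1 in 7 of 8. The share of all genes with such a pattern was not counted.

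Other mitochondrial gene groups were set beside the members. In macrophage-like cells the mitochondrial ribosome had 21 of 78 measured genes past the fold upward (26.9%, near the 23.9% of all genes) and none downward (beside 11.9%). The tricarboxylic acid cycle had 5 of 14 upward (35.7%) and none downward, and protein import 7 of 16 (43.8%) and none. Complex IV assembly factors had 7 of 16 past the fold upward (43.8%) and 1 downward (6.25%). In NK/ILC1-like cells 3 mitochondrial ribosome genes of 55 were upward (5.45%, beside 15.2% of all genes) and 14 downward (25.5%, beside 14.9%), and 4 of 14 import genes were downward (28.6%). In T-like cells the mitochondrial ribosome had 18 of 74 upward (24.3%, beside 11.3% of all genes) and 6 downward (8.11%, beside 13.8%), and the tricarboxylic acid cycle 2 of 14 upward (14.3%) and none downward.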

How the data were processed

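The deposited matrices hold raw UMI counts per gene and barcode, with no normalization by the authors. Cell Ranger 7.1.0 wrote them, per the file headers. Per the submitters' processing notes the version was 5.0.1 and the genome mm10. The sources used here do not say whether intronic reads were counted. Barcodes with at least 200 genes and under 15% mt- UMIs were kept. Scrublet (scanpy 1.11.5) scored doublets; its automatic threshold marked 2.65% of AKK and 0.177% of PBS barcodes and was not used, and the top 0.8% per 1000 barcodes (340 AKK, 187 PBS) was removed. Clustering left out the members and mt- genes: 2000 variable genes, 30 components, 15 neighbours, Leiden resolution 1.0 (leidenalg 0.10.2). Clusters were named by marker score, and 4 stayed unnamed. Counts were summed per class and library. Ratios have exact conditional binomial and shares exact (Clopper-Pearson) 95% intervals. Only the ratio intervals were checked on simulated data. The simulated counts had no spread between cells, so that check does not cover such spread. PCR duplicates are collapsed, but UMIs of 1 library are not replicates.

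The genes named per class are the 3 highest and 3 lowest ratios among members with at least 100 UMIs whose interval excludes 1; isoforms, complex II subunits, the 2 most abundant members of each complex and members 4 times the median of other classes were named by rule. Make-up values, depth bins, per-cluster values, the immature neutrophil-like values and members past the fold in 3 classes were chosen after values were seen. Members and lists were chosen with earlier results of these data known. Coordinates come from GENCODE M21 on GRCm38, in which 99.8% of gene identifiers were found.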

Additional observations from a re-analysis of the deposited data

Results flagged for a closer look

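Results that went in opposite directions in different classes are listed here; the differences between classes were not tested, since each group had 1 library. For the summed respiratory chain members, the log2 ratio AKK over PBS was positive in macrophage-like (0.23), monocyte-like (0.16), T-like (0.13) and neutrophil-like cells (0.03, negative in 4 of 11 alternatives), and negative in immature neutrophil-like (-0.17), NK/ILC1-like (-0.10) and tumour/epithelial-like cells (-0.09). For the mt- genes it was positive in T-like (0.17), B-like (0.05) and NK/ILC1-like cells (0.02), and negative in neutrophil-like (-0.63), monocyte-like (-0.37), immature neutrophil-like (-0.32), macrophage-like (-0.27) and tumour/epithelial-like cells (-0.05).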

How the results depend on the processing

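Over the 11 alternatives per class, the log2 ratio of the summed members kept its sign in all 11 for macrophage-like (0.11 to 0.30), monocyte-like (0.02 to 0.64), T-like (0.07 to 0.24) and NK/ILC1-like cells (-0.12 to -0.06), but in only 7 for neutrophil-like cells (-0.07 to 0.03), whose small positive value turned negative in the other 4, and in 10 for B-like cells (-0.09 to 0.02). Macrophage-like, monocyte-like and B-like cells each formed a single cluster. For them, weighting each cluster alike repeats the reported value, so that alternative could not change the sign. Values outside the counting interval of the reported value were as follows. Centred on the median of all measured genes neutrophil-like cells gave -0.040, macrophage-like 0.11, monocyte-like 0.019, NK/ILC1-like -0.12 and B-like -0.049. With the class taken from each cell's own marker score neutrophil-like cells gave -0.070, macrophage-like 0.26 and monocyte-like 0.15. Clustering at resolution 2.0 gave 0.28 for macrophage-like and 0.21 for monocyte-like cells, and no limit on the mitochondrial share 0.28 and 0.20. Weighting each cell alike gave 0.26 for macrophage-like, 0.23 for monocyte-like and 0.10 for T-like cells, and weighting each cluster alike -0.021 in neutrophil-like, 0.24 in T-like and -0.066 in NK/ILC1-like cells. Keeping doublets gave -0.057 in NK/ILC1-like cells. Cells between the percentiles 25 and 75 of UMIs, an alternative added after seeing the data, gave -0.0335 for neutrophil-like, 0.30 for macrophage-like, 0.64 for monocyte-like, 0.068 for T-like and -0.086 for B-like cells. The cause was not tested.

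The mt- log2 ratio of neutrophil-like cells ranged from -0.86 to -0.51, that of macrophage-like cells from -0.69 to -0.26 and that of monocyte-like cells from -0.75 to -0.24, and those of NK/ILC1-like (-0.01 to 0.06) and B-like cells (-0.03 to 0.05) took both signs. At 1.5-fold no member of macrophage-like and 1 of monocyte-like cells stayed past the fold upward, and at a minimum of 20 UMIs 31 and 26 did. The shares of all genes were not counted at these settings, so these counts cannot be read against a background. Of 236 values of single named members under the alternatives, 231 were counted as unmoved. This count includes entries for a minimum of 500 UMIs, which repeat the reported value and could not move. Ndufaf8 in neutrophil-like cells moved to 0.23. No paired analysis was possible because each group has 1 library.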

Other observations

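mt-Atp8, the mitochondrially encoded subunit 8 of the ATP synthase, was lower in the AKK library in all 8 compared classes, at 0.413 times in neutrophil-like to 0.777 times in B-like cells, and mt-Nd4l, a complex I subunit, likewise in all 8, at 0.563 to 0.994 times. The other mt- genes were above 1 in at least 1 class, T-like cells among them for most: mt-Co1, the catalytic subunit of complex IV, ranged from 0.619 in neutrophil-like to 1.08 in T-like cells. In T-like cells mt-Atp8 had 943 UMIs (112 CPM) in the AKK and 678 UMIs (150.2 CPM) in the PBS library. Atpif1 was lower in immature neutrophil-like cells (45.2 CPM in the AKK and 74.03 CPM in the PBS library, 0.611 times) and higher in macrophage-like cells (1.26 times).

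The 2 cDC classes, too small for a comparison, differed from each other in AA467197. cDC1-like cells had 41.3 CPM in the AKK and 99.6 CPM in the PBS library, and cDC2-like cells had 358 and 533 CPM. Atpif1 ran the opposite way, at 517 and 532 CPM in cDC1-like and 198 and 267 CPM in cDC2-like cells.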
